A study of Mus musculus with 32 samples.

Results

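The genes described here are the interferon regulatory factors Irf1, Irf2, Irf3, Irf5, Irf7, Irf8 and Irf9, chosen by name as the members of the family that the deposited counts list, 7 of 12451 genes. Their counts were followed in YUMM3.3 cells, a mouse melanoma cell line, in 32 wells of 6-well plates that formed 8 groups of 4. The groups were untreated cells (NT), cells given 40 ng/ml Activin-A (ActA), cells given 20 ng/ml IFN-γ (IFNg) and cells given both factors at these doses (ActA_IFNg), each harvested at 4 hrs and at 12 hrs. The dose of Activin-A is that of the labels and methods, and the study's figure legends state a higher one. All wells held a single cell line without other cell types of a tumor, so that p-values measured the spread between wells and not between animals or independent lines. mRNA was measured by BRB-seq, a method that barcodes each sample's cDNA, pools the samples and reads the 3′ ends of their transcripts. In the table the members carried the identifiers ENSMUSG00000018899 (Irf1), ENSMUSG00000031627 (Irf2), ENSMUSG00000003184 (Irf3), ENSMUSG00000029771 (Irf5), ENSMUSG00000025498 (Irf7), ENSMUSG00000041515 (Irf8) and ENSMUSG00000002325 (Irf9).

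IRF proteins share a DNA-binding domain that recognizes GAAA repeats, which are found in the interferon-stimulated response element (ISRE). IFN-γ signals through JAK kinases to factors that bind the gamma-activated site (GAS), and Irf1 is a classical early target of this pathway that in turn activates genes of antigen presentation. IRF9 is the DNA-binding subunit of the complex ISGF3, which binds the ISRE. By contrast, IRF3, IRF5 and IRF7 reside in the cytoplasm until kinases phosphorylate them, a step that mRNA counts do not measure. These kinases act downstream of nucleic acid sensors and of adaptors such as STING. IRF2 shares binding sites with IRF1 and often acts as its antagonist, and IRF8 is best known from myeloid cells and B cells. Activin-A is a ligand of the TGF-β family that signals through Smad proteins. The comparisons asked which of these factors responded to each ligand, and how Activin-A altered the response to IFN-γ.

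RefSeq's promoter windows on GRCm38.p6, each 300 bases long from 250 bases before to 50 after a gene's start, were matched for all 7 members, with 10 windows in all because Irf1, Irf8 and Irf9 have a second start. They were searched on both strands for the GAS motif TTCNNNGAA, which reads alike on either strand, and for an ISRE core of GAAA, any 2 bases, GAAA. The GAS motif was found in 8.3% of all 32851 windows of the table and the ISRE core in 3.44%. Irf1, Irf2 and Irf8 each held a GAS match in their first window, and these windows are shown because they carry the matches, in capitals, with the rest in lower case, 5′ to 3′. They lie on the plus strand at chr11:53769764-53770063 (Irf1), chr8:46739495-46739794 (Irf2) and chr8:120736108-120736407 (Irf8).
Irf1 promoter: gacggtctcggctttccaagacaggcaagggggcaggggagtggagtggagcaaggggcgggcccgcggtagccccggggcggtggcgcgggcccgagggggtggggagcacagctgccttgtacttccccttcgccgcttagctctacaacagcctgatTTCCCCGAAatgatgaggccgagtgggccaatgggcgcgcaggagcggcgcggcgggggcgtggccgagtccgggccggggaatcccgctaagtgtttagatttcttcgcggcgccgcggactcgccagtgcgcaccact
Irf2 promoter: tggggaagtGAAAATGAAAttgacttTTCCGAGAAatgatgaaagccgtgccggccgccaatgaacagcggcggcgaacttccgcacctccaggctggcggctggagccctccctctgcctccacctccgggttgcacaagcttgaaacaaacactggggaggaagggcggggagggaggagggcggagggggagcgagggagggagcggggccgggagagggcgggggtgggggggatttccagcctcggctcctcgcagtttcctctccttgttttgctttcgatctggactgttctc
Irf8 promoter: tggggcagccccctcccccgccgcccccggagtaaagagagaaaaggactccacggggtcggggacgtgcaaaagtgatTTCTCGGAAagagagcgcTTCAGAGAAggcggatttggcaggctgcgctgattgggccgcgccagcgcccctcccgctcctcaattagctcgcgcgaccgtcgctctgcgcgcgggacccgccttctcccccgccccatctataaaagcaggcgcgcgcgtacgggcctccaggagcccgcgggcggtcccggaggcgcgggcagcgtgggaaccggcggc
The GAS match of Irf1, TTCCCCGAA, lay 90 to 82 bases before the start. In Irf2 the first stretch in capitals, GAAAATGAAA, is the ISRE core, 241 to 232 bases before the start, and the second, TTCCGAGAA, is the GAS match at 224 to 216, so that the motifs did not overlap. Irf8 had 2 GAS matches, TTCTCGGAA at 171 to 163 and TTCAGAGAA at 153 to 145. The windows of Irf3, Irf5, Irf7 and Irf9 held neither set of letters, which says nothing of sites outside them or with other letters.

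**Figure D1:**
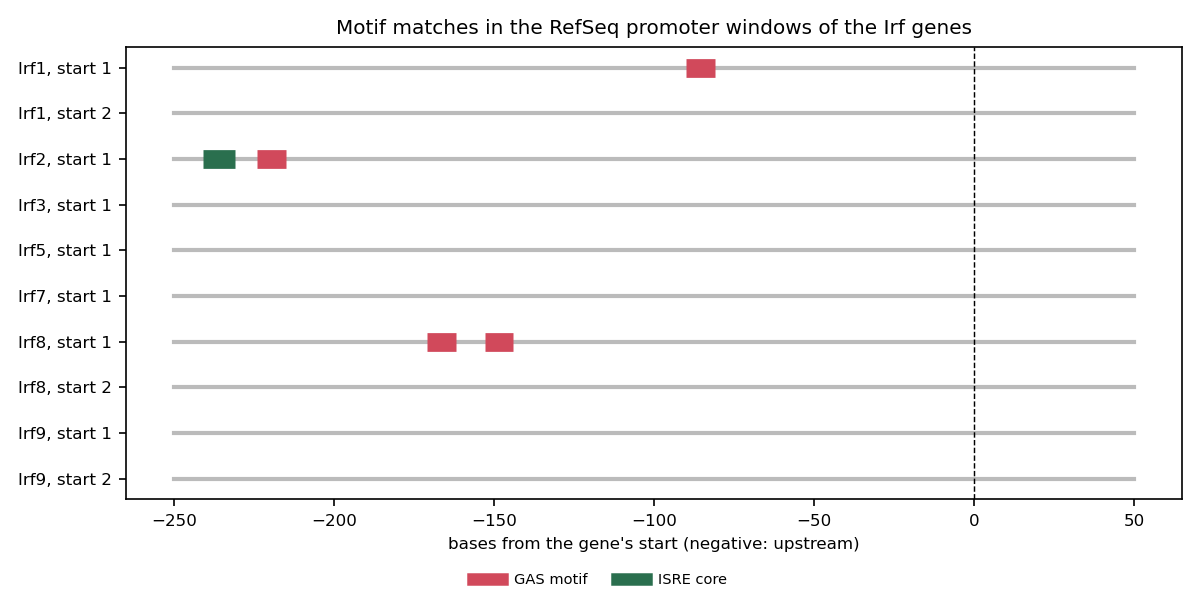
Positions of motif matches in the 10 RefSeq promoter windows of the Irf genes, in bases from the gene's start, with GAS matches in red and the ISRE core in green. Matches lie between 241 and 82 bases upstream, in Irf1, Irf2 and Irf8 and in no other member's window.

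Total counts ranged from 654539 to 1455074 per well with a median of 988019.5, and all 7 members passed edgeR's filter on low counts at both times, 6 of them at 4 hrs (all but Irf5) and 7 at 12 hrs also in the wells without IFN-γ alone. Wells of a group differed by more than counting noise, with chi-square values of 1.162 to 2.886 per gene. The pairs that included ActA_4H replicate 1 had 2.447 to 2.886, and no other pair was above 1.542. Of the melanocyte lineage markers all 7 were counted, as the label of the cells implies, and their sum was 321 to 451 CPM (counts relative to the well's total, TMM-normalized) per well, with ranges that overlapped between groups. Of 10 leukocyte markers 5 were in the table, with a sum of 9.67 to 27.3 CPM. Ptprc had 0 to 5 counts and Csf1r 0 to 3, and these, Itgax and Fcer1g did not pass the filter. Lyz2 passed it at 4 hrs only. Its log2FC against untreated cells was 0.64 with IFN-γ (SE 0.38, edgeR adjusted p = 0.487) and 0.77 with Activin-A (SE 0.36, adjusted p = 0.387). Of the endothelial markers Pecam1 and Cdh5 0 of 2 were in the table.

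IFN-γ raised 4 of the 7 members, Irf1, Irf2, Irf7 and Irf9, at both times, with every treated well above every untreated well. How many of all genes had wells separated in this way was not counted. By the quasi-likelihood test of edgeR, with p-values adjusted over all genes by Benjamini-Hochberg, 5.06% of 9137 genes were differentially expressed (DEGs, adjusted p under 0.05) at 4 hrs and 9.25% of 8971 at 12 hrs. The median log2FC of the 7 members was 0.86 at 4 hrs and 0.79 at 12 hrs, beside -0.01 over all genes at both times. Irf3, Irf5 and Irf8 did not pass the test.

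Irf1 had the largest response of the family. Untreated wells held 41.3, 44.3, 42.8 and 41.0 CPM at 4 hrs, and wells with IFN-γ held 775, 788, 761 and 806 CPM. At 12 hrs the untreated wells held 41.8, 46.6, 38.5 and 53.8 CPM and those with IFN-γ 738, 681, 683 and 708 CPM. No well lay between 53.8 and 656 CPM in any of the 8 groups, so that Irf1 fully separated the wells with IFN-γ from those without. The log2FC was 4.22 (SE 0.09, n = 4 against 4, edgeR adjusted p = 3.22e-42) at 4 hrs, an 18.6-fold rise, and 3.96 (SE 0.09, edgeR adjusted p = 4.49e-64) at 12 hrs, 15.6-fold. Ranked by log2FC, Irf1 was number 21 of 9137 genes at 4 hrs and number 34 of 8971 at 12 hrs.

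Irf9 stood at 29.0, 22.1, 29.6 and 31.0 CPM in untreated wells and at 71.0, 96.8, 80.8 and 88.3 CPM with IFN-γ at 4 hrs. At 12 hrs the untreated wells had 24.7, 28.7, 28.6 and 33.9 CPM and the treated wells 129, 101, 111 and 110 CPM. All 4 treated wells thus exceeded all untreated wells at each time. The log2FC was 1.62 (SE 0.16, edgeR adjusted p = 1.53e-12) and then 1.97 (SE 0.14, edgeR adjusted p = 8.07e-23). In the GENCODE annotation Rnf31, a subunit of the linear ubiquitin chain assembly complex, overlaps Irf9 on the same strand, and reads near the boundary could have been split between them. Rnf31 was itself higher with IFN-γ, with a log2FC of 0.80 (SE 0.22, edgeR adjusted p = 0.0149) at 4 hrs and 1.29 (SE 0.22, adjusted p = 1.86e-06) at 12 hrs, and its part in the Irf9 counts was not tested.

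Irf7, which amplifies type I interferon production, had 18.5, 16.4, 14.3 and 19.0 CPM in untreated wells at 4 hrs and 47.8, 61.0, 48.5 and 60.0 CPM with IFN-γ. At 12 hrs untreated wells had 27.1, 18.8, 9.91 and 22.2 CPM, and wells with IFN-γ had 132, 118, 82.1 and 131 CPM. Replicate 3 was the lowest well of both 12-hr groups, and the groups did not overlap. The log2FC was 1.70 (SE 0.19, edgeR adjusted p = 1.78e-10) at 4 hrs and 2.52 (SE 0.17, edgeR adjusted p = 1.50e-24) at 12 hrs, 3.24-fold and 5.75-fold. Phrf1, which overlaps Irf7 on the opposite strand, had a log2FC of 0.01 (SE 0.16) at 4 hrs and 0.18 (SE 0.16) at 12 hrs and did not pass the test, with adjusted p-values of 0.992 and 0.625 by edgeR.

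Irf2, the antagonist of IRF1, responded least among the 4. Its untreated wells had 32.5, 48.1, 29.6 and 36.0 CPM at 4 hrs and those with IFN-γ 66.1, 64.5, 67.6 and 66.9 CPM. At 12 hrs the values were 37.9, 49.3, 28.6 and 43.3 CPM without and 61.9, 69.0, 81.0 and 65.7 CPM with IFN-γ. The treated wells at 4 hrs were close to each other (SD 1.32 CPM), whereas the untreated wells were spread (SD 8.12 CPM). The log2FC was 0.86 (SE 0.16, edgeR adjusted p = 6.71e-05) at 4 hrs and 0.79 (SE 0.15, edgeR adjusted p = 3.13e-05) at 12 hrs, 1.81-fold and 1.73-fold.

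**Figure D2:**
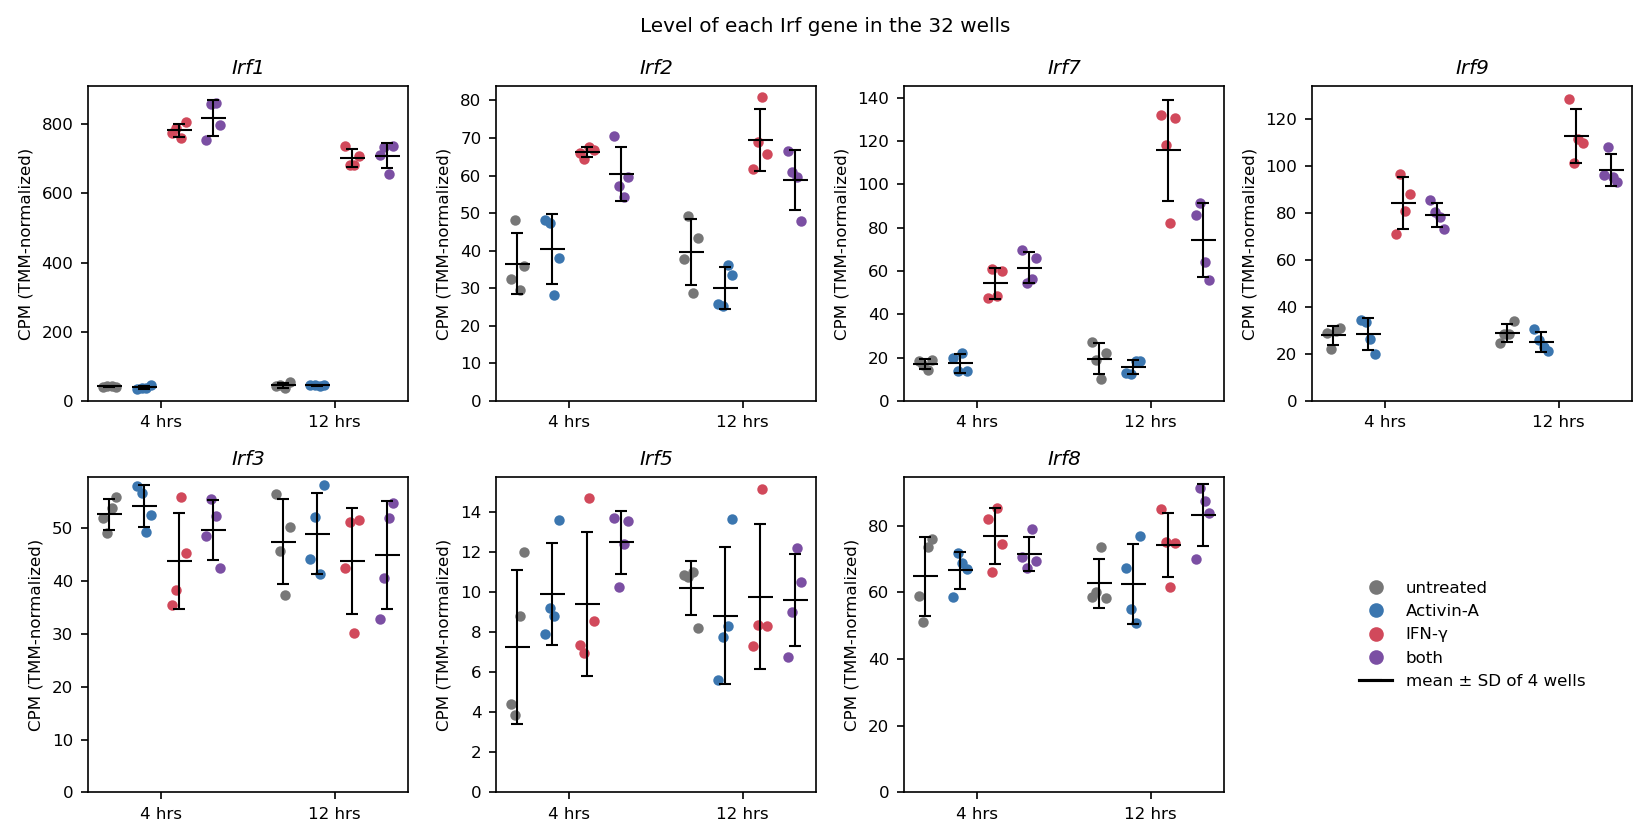
Level of each Irf gene in every well, in TMM-normalized CPM on linear axes from 0, with 4 wells per group and black bars for mean ± SD. Wells with IFN-γ lie above all wells without it for Irf1, Irf7 and Irf9, and for Irf2 all but 1 do, a well with both factors at 12 hrs (47.8 CPM), whereas wells overlap between treatments for Irf3, Irf5 and Irf8.

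Irf3, whose protein is activated downstream of STING, had 52.7 ± 2.92 CPM in untreated wells and 43.8 ± 9.06 CPM with IFN-γ at 4 hrs (SD, n = 4), and 47.5 ± 8.003 against 43.9 ± 10.01 CPM at 12 hrs. The log2FC was -0.28 (95% interval -0.58 to 0.03, edgeR adjusted p = 0.449) and -0.12 (-0.44 to 0.21, adjusted p = 0.788). Irf8 had 64.8 ± 11.9 CPM in untreated wells and 77.0 ± 8.46 CPM with IFN-γ at 4 hrs, and 62.8 ± 7.37 against 74.1 ± 9.58 CPM at 12 hrs. In 13 of 16 pairs of wells at 4 hrs and 15 of 16 at 12 hrs the treated well was higher, with log2FC of 0.25 (95% interval -0.02 to 0.51, edgeR adjusted p = 0.435) and 0.24 (-0.02 to 0.51, adjusted p = 0.337). Irf5, a factor downstream of Toll-like receptors, rested on 4 to 15 counts per well in all 32 wells. Its mean was 7.25 ± 3.85 CPM untreated and 9.40 ± 3.60 CPM with IFN-γ at 4 hrs, and 10.2 ± 1.34 against 9.77 ± 3.61 CPM at 12 hrs. At that depth its log2FC had a 95% interval of -0.44 to 1.12 at 4 hrs and of -0.77 to 0.60 at 12 hrs. Changes within those intervals were not excluded.

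The same 4 members rose when IFN-γ was added to Activin-A, in a comparison that shares no well with the one above. At 4 hrs 6.07% of all genes were DEGs between cells with both factors and cells with Activin-A, and at 12 hrs 9.62% were. Irf1 had a log2FC of 4.40 (SE 0.09, edgeR adjusted p = 3.03e-43) at 4 hrs and 3.96 (SE 0.09, adjusted p = 1.06e-63) at 12 hrs. Irf7 rose by 1.78 (SE 0.18, edgeR adjusted p = 4.37e-12) and 2.27 (SE 0.20, adjusted p = 3.63e-17) on the log2 scale, and Irf9 by 1.47 (SE 0.15, adjusted p = 1.99e-11) and 1.93 (SE 0.15, adjusted p = 2.41e-20). For Irf2 the increase was 0.58 (SE 0.15, edgeR adjusted p = 0.0101) at 4 hrs and 0.99 (SE 0.17, adjusted p = 3.90e-06) at 12 hrs. The groups did not overlap for any of the 4 at either time, a separation that was not counted over all genes. The call of Irf2 at 4 hrs was lost without ActA_4H replicate 3 (log2FC 0.43, adjusted p = 0.100) or ActA_IFNg_4H replicate 1 (0.50, adjusted p = 0.0667).

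Irf8 passed the test in this comparison at 12 hrs only. Wells with Activin-A had 67.5, 55.1, 50.7 and 76.8 CPM and wells with both factors 70.0, 91.3, 87.4 and 83.9 CPM, so that the groups overlapped, with 15 of 16 pairs higher. The log2FC was 0.42 (SE 0.13, edgeR adjusted p = 0.0288). DESeq2 did not call it (adjusted p = 0.112), and edgeR lost it in 5 of 8 fits when a single well was omitted, namely ActA_12H replicates 2 and 3 and ActA_IFNg_12H replicates 2, 3 and 4, with adjusted p-values of 0.0615 to 0.145. Irf3 and Irf5 were not DEGs, with log2FC of -0.12 and 0.34 at 4 hrs and -0.11 and 0.19 at 12 hrs.

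The difference between the 2 effects of IFN-γ, with and without Activin-A, was tested as an interaction. None of the 7 members passed it at 4 hrs or at 12 hrs by edgeR or DESeq2, and none had an unadjusted p under 0.05 by edgeR. Over all genes 0% were called at 4 hrs by edgeR, with 505 of 9137 at an unadjusted p under 0.05, and 0.0111%, 1 gene, at 12 hrs. For Irf1 at 4 hrs the interaction was 0.19 (95% interval -0.13 to 0.50). For Irf7 at 12 hrs it was -0.25 (95% interval -0.85 to 0.35, edgeR adjusted p = 0.953), an interval that includes no difference as well as a reduction by nearly 1 on the log2 scale.

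**Figure D3:**
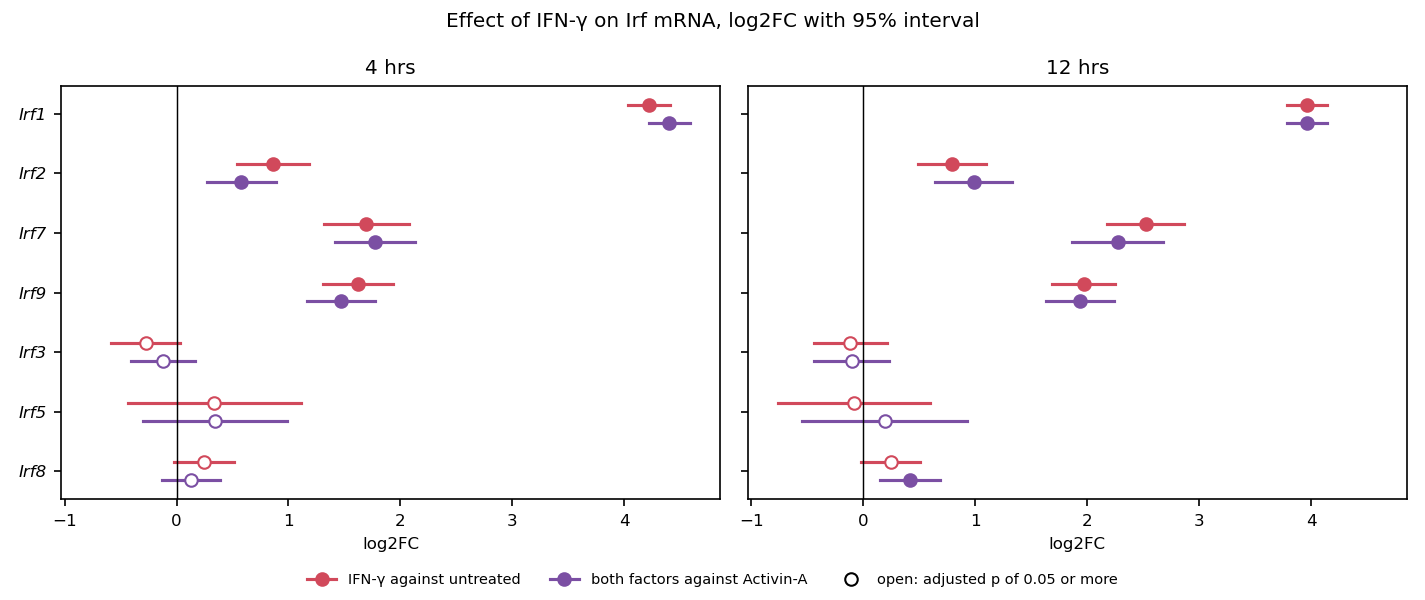
Effect of IFN-γ on each Irf gene as log2FC with its 95% interval, without Activin-A (red, against untreated cells) and with Activin-A (purple, against Activin-A alone), at 4 hrs and 12 hrs. Filled points had an adjusted p under 0.05, as Irf1, Irf2, Irf7 and Irf9 did in all 4 comparisons and Irf8 in 1, and the red and purple intervals of each gene overlap.

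No member was called with Activin-A alone at either time by edgeR or DESeq2, a count of 0 of 7 that is near the background. DEGs made up 1.64% of all genes at 4 hrs and 2.41% at 12 hrs by edgeR, and the members' log2FC lay between -0.13 (Irf1) and 0.46 (Irf5) at 4 hrs and between -0.43 (Irf2) and 0.01 (Irf1) at 12 hrs. No member had an unadjusted p under 0.05 at 4 hrs and 1 had at 12 hrs, Irf2, with 25.7, 25.2, 36.2 and 33.5 CPM against 37.9, 49.3, 28.6 and 43.3 CPM in untreated wells. Its groups overlapped, and its 95% interval was -0.79 to -0.07 (edgeR adjusted p = 0.276). Irf7 had 12.9, 12.6, 18.6 and 18.6 CPM with Activin-A at 12 hrs against 27.1, 18.8, 9.91 and 22.2 CPM, a log2FC of -0.39 (95% interval -0.92 to 0.14, edgeR adjusted p = 0.632).

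When Activin-A was added to IFN-γ, no member was called at 4 hrs and Irf7 alone was called at 12 hrs, while 0.810% and 1.03% of all genes were DEGs. These comparisons share their IFN-γ wells with those against untreated cells. At 4 hrs no member had an unadjusted p under 0.05 by edgeR and DESeq2 called 0 members. Irf7 had 69.6, 54.7, 56.2 and 65.9 CPM with both factors at 4 hrs, beside 47.8, 61.0, 48.5 and 60.0 CPM with IFN-γ. At 12 hrs it had 85.8, 91.3, 64.2 and 55.9 CPM with both factors, beside 132, 118, 82.1 and 131 CPM with IFN-γ. At 12 hrs replicate 3 of the IFN-γ group, the lowest of its 4, lay below 2 wells of the combination, so that 2 of 16 pairs went the other way. All 4 wells with both factors at 12 hrs still exceeded the highest well without IFN-γ, at 27.1 CPM. The log2FC at 12 hrs was -0.64 (SE 0.14, 95% interval -0.91 to -0.37, edgeR adjusted p = 0.00168), and with each well left out in turn it stayed between -0.76 and -0.53 with adjusted p-values of 6.79e-05 to 0.0485. At 4 hrs the log2FC was 0.14 (95% interval -0.15 to 0.43, edgeR adjusted p = 0.849).

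The change of this effect between the times was tested over all 32 wells. For Irf7 the effect of Activin-A under IFN-γ at 12 hrs minus that at 4 hrs was -0.79 on the log2 scale (SE 0.21, 95% interval -1.20 to -0.37), with an unadjusted p of 2.99e-04 and an adjusted p of 0.148 by edgeR. It missed the threshold, which 0.0964% of all genes passed. Without IFNg_12H replicate 3 it passed, at -0.91 (adjusted p = 0.0294), as it did without ActA_IFNg_12H replicate 2, at -0.90 (adjusted p = 0.0484). No other member had an unadjusted p under 0.05 there, and DESeq2 called 0 members.

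The other members did not pass the test against IFN-γ at either time. Irf1 had 755, 858, 861 and 797 CPM at 4 hrs and 710, 734, 656 and 738 CPM at 12 hrs, and its log2FC against IFN-γ was 0.06 (95% interval -0.07 to 0.19) and 0.02 (-0.10 to 0.13). For Irf1 a change by Activin-A of more than 0.19 in either direction was thus outside both intervals. Irf9 had 85.4, 80.3, 78.1 and 73.1 CPM at 4 hrs and 96.0, 108, 95.2 and 93.2 CPM at 12 hrs, with log2FC of -0.11 (95% interval -0.37 to 0.14) and -0.19 (-0.42 to 0.03). At 12 hrs 1 of 16 pairs was higher with both factors, but the adjusted p was 0.601 by edgeR. Irf2 had log2FC of -0.14 (95% interval -0.43 to 0.15) and -0.24 (-0.53 to 0.05). Irf3 had 0.20 and 0.02, Irf8 -0.09 and 0.17, and Irf5, the least precise, 0.46 (95% interval -0.22 to 1.14) and -0.02 (-0.74 to 0.70).

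**Figure D4:**
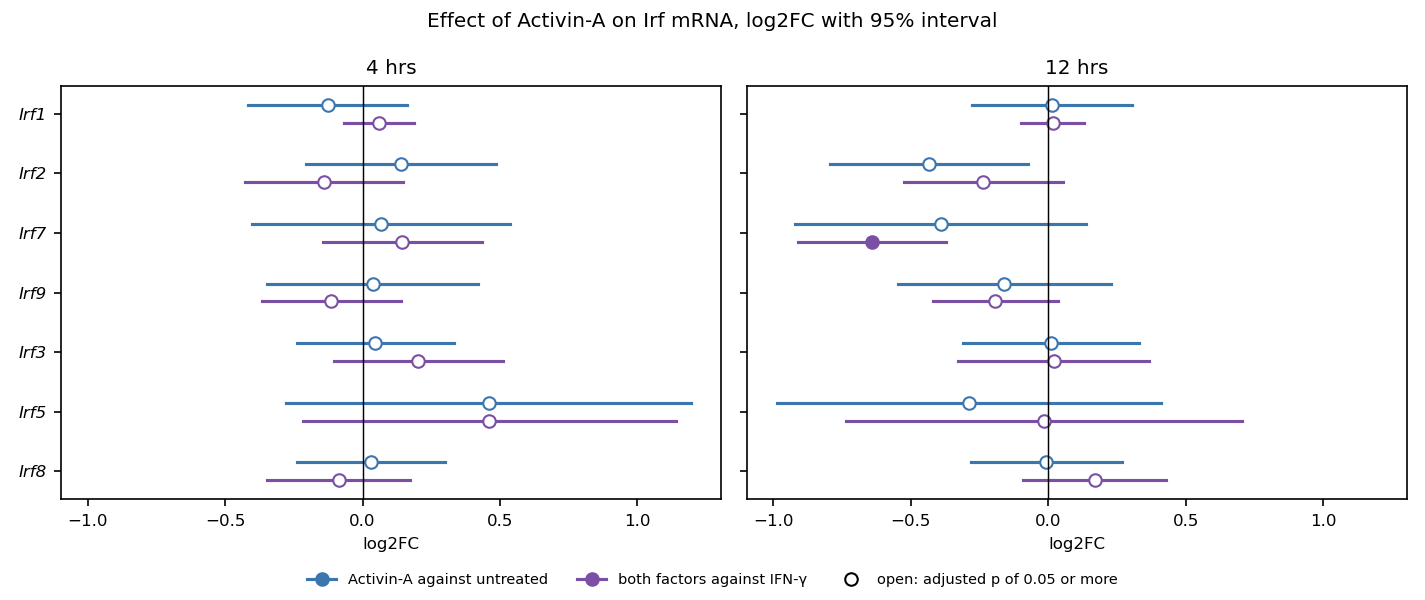
Effect of Activin-A on each Irf gene as log2FC with its 95% interval, in the absence (blue) and presence (purple) of IFN-γ, at 4 hrs and 12 hrs. The only filled point, with an adjusted p under 0.05, is Irf7 at 12 hrs under IFN-γ, at -0.64, and the blue interval for Irf7 at that time overlaps the purple one.

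Between 4 hrs and 12 hrs no member was called in untreated cells by edgeR or DESeq2, and 0 had an unadjusted p under 0.05 by edgeR. Of 9332 genes 4.90% were called by edgeR, so that 0 of 7 is near the background, and the interval of Irf5 (log2FC 0.53, 95% interval -0.19 to 1.24) leaves room for a change. In cells with IFN-γ 8.41% of genes changed, and Irf7 and Irf9 were among them. Irf7 rose further by a log2FC of 1.07 (SE 0.14, edgeR adjusted p = 8.79e-09), from 54.3 ± 7.17 to 115.7 ± 23.3 CPM (SD, n = 4), without overlap of the wells. Irf9 rose by 0.39 (SE 0.12, edgeR adjusted p = 0.0188), from 84.2 ± 10.95 to 112.7 ± 11.4 CPM. DESeq2 did not call Irf9 (adjusted p = 0.0711), nor did edgeR without IFNg_4H replicate 1 (0.0980) or 3 (0.0554) or IFNg_12H replicate 1 (0.0977). Irf1 went the other way, from 783 ± 19.2 to 702 ± 26.6 CPM, with each 12-hr well below each 4-hr well, but the log2FC of -0.16 (SE 0.06) missed the threshold by edgeR (adjusted p = 0.0810), and it passed only when the fit was limited to the groups compared (adjusted p = 0.0422).

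When each time's own untreated wells were subtracted, no member was called for a difference in the effect of IFN-γ between 12 hrs and 4 hrs, by edgeR or DESeq2. For Irf7 the difference was 0.84 on the log2 scale (95% interval 0.25 to 1.43, unadjusted p = 0.00610, edgeR adjusted p = 0.362), for Irf9 0.36 (-0.08 to 0.80) and for Irf1 -0.24 (-0.55 to 0.06), while 0.579% of all genes were called. Irf7 was the only member with an unadjusted p under 0.05. In the presence of Activin-A 0.654% of genes were called and again no member by either tool, with 2 at an unadjusted p under 0.05, Irf1 at -0.44 (95% interval -0.74 to -0.13, edgeR adjusted p = 0.231) and Irf9 at 0.47 (0.02 to 0.92, adjusted p = 0.480).

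Across the 8 groups the order of levels was set by IFN-γ for the 4 responding members. For Irf1 the 4 groups without IFN-γ had means of 38.8 to 45.4 CPM, whose wells overlapped, then came the 12-hr groups with IFN-γ at 702 and with both factors at 709.5 CPM, whose wells also overlapped, and above them without overlap the 4-hr groups with IFN-γ at 783 and with both factors at 817.5 CPM. For Irf7 the groups without IFN-γ had 15.7 to 19.5 CPM, followed by IFN-γ at 4 hrs (54.3), both at 4 hrs (61.6), both at 12 hrs (74.3) and IFN-γ at 12 hrs (115.7 CPM). Neighbours among these 4 groups overlapped in their wells, and the lowest of them did not overlap with the groups without IFN-γ. For Irf9 the order was 25.1 to 29.0 CPM without IFN-γ, then both at 4 hrs (79.2), IFN-γ at 4 hrs (84.2), both at 12 hrs (98.1) and IFN-γ at 12 hrs (112.7 CPM), again with overlap between neighbours above the groups without IFN-γ. Irf2 had 30.1 to 40.5 CPM without IFN-γ and 58.8 to 69.4 CPM with it. Irf3 stayed within group means of 43.8 to 54.2 CPM, Irf8 within 62.5 to 83.2 CPM and Irf5 within 7.25 to 12.5 CPM.

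Genes with the most similar pattern were sought by Pearson's r of log2 CPM over the 8 group means among 8612 genes with a mean of at least 10 CPM, as a description without a test, since the 8 means share a strong IFN-γ step. Irf1 was most like the IFN-inducible GTPases Ifi47 (r = 0.9993) and Igtp (0.9992), Irf9 most like Zbp1 (0.9984), a sensor of Z-form nucleic acids, Apol9a (0.9983) and Lamp2 (0.9982), and Irf7 most like the antiviral genes Ifit3 (0.9973) and Ifitm3 (0.9941) and Plgrkt (0.9933). For Irf2 they included Ston2 (0.9906) and Znfx1 (0.9822). Irf1, Irf2, Irf7 and Irf9 each had between 250 and 323 genes with r over 0.9. For Irf8 the closest were Ptprk (0.9822), Mbnl2 and Them6, for Irf3 Atxn1 (0.9783), Apaf1 and Unc5b, and for Irf5, with 5 genes over 0.9, Ufc1 (0.9709), Rabl2 and Snrpg. By Spearman's rho the first 3 genes differed for each member, with only Ston2, Plgrkt, Apaf1 and Mbnl2 kept in a member's list. Fewer genes had a rho over 0.9 for Irf1 (27), Irf2 (84), Irf7 (118) and Irf9 (140). For Irf3 there were 94, more than the 43 by Pearson's r.

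Upstream of the family, IFN-γ raised 4 of 10 receptor, kinase and STAT genes and lowered 1 at 4 hrs, and raised 5 at 12 hrs. Of all genes 5.06% were called at 4 hrs and 9.25% at 12 hrs, and the list's median log2FC was 0.29 and 0.53 beside -0.01 over all genes at both times. Stat2, the partner of IRF9 in ISGF3, rose by a log2FC of 2.45 (SE 0.19, edgeR adjusted p = 6.73e-16) and 2.14 (SE 0.16, adjusted p = 2.23e-22), and Stat3, which transmits signals of IL-6 family cytokines, by 2.13 (SE 0.12, adjusted p = 7.89e-22) and 1.96 (SE 0.12, adjusted p = 2.62e-27). The gene that fell at 4 hrs was the receptor subunit Ifngr2, at -0.42 (SE 0.11, edgeR adjusted p = 0.0117). None of the 10 was a DEG by edgeR with Activin-A alone or when Activin-A was added to IFN-γ, at either time, comparisons in which 0.810% to 2.41% of all genes were called, so that 0 of 10 is near the background.

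Among the sensors and adaptors that lead to activation of IRF3, IRF5 and IRF7, 5 of 13 tested genes were higher with IFN-γ at 4 hrs and 5 at 12 hrs, against 5.06% and 9.25% of all genes called, and none was lower. Ikbke, the remaining gene of the list, had 1 to 15 counts per well and did not pass the filter on low counts. The RNA sensors Ifih1 and Rigi had log2FC of 2.07 (SE 0.24, edgeR adjusted p = 8.18e-10) and 1.49 (SE 0.17, adjusted p = 4.00e-10) at 4 hrs and of 2.36 (SE 0.21, adjusted p = 4.16e-18) and 2.24 (SE 0.18, adjusted p = 1.02e-20) at 12 hrs. Sting1, the adaptor of cytosolic DNA sensing, rose by 1.16 (SE 0.13, edgeR adjusted p = 6.83e-11) and 0.93 (SE 0.10, adjusted p = 3.08e-13). When Activin-A was added to IFN-γ, 2 of the 13 fell at 12 hrs, where 1.03% of all genes were called, Rigi by 0.65 (SE 0.14, edgeR adjusted p = 0.00313) and Ifih1 by 0.62 (SE 0.16, adjusted p = 0.0282) on the log2 scale. Sting1 had -0.30 (SE 0.10, adjusted p = 0.125) there and did not pass. None of the 13 was called by edgeR at 4 hrs in that comparison, near the background of 0.810%.

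Of 8 cofactors and feedback genes 4 rose at both times with IFN-γ, where 5.06% and 9.25% of all genes were called, namely Trim21, a ubiquitin ligase that binds IRFs (log2FC 3.57 at 4 hrs and 2.98 at 12 hrs), the cytokine signaling suppressors Socs1 (2.24 and 2.22) and Socs3 (1.82 and 1.79), and the ISG15 protease Usp18 (1.88 at 12 hrs), with edgeR adjusted p-values of at most 1.81e-08. Trim21 had only 3 to 9 counts in untreated wells and passed the filter only with its IFN-γ wells included. Its rise was therefore not independent of the filter. Of the 7 genes that also passed the filter in the wells without IFN-γ, 3 were higher at each time. The IRF2-binding genes Irf2bp1, Irf2bp2 and Irf2bpl and the phosphatase gene Ptpn2 were not DEGs. No gene of this list was called by edgeR with Activin-A alone, where 1.64% and 2.41% of all genes were called, or on top of IFN-γ, where 0.810% and 1.03% were, so that 0 of 8 is near the background.

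Of 18 listed targets of IRFs or ISGF3, 17 were among the deposited counts and 15 were tested. Of these 15, 14 were higher with IFN-γ at each time, where 5.06% and 9.25% of all genes were called. Ccl5 was not called (0.24 and 0.01). Mx1 and Mx2 did not pass the filter on low counts and were not tested. Their means at 4 hrs were 4.55 and 6.04 CPM in untreated wells and 4.86 and 7.10 CPM with IFN-γ. At 12 hrs they were 4.31 and 6.84 CPM in untreated wells and higher with IFN-γ, at 8.54 and 11.5 CPM. Ifnb1 was not analysed here. Of the 14, 5 passed the filter only with their IFN-γ wells included, namely Psmb9, Nlrc5, Cd274, Oas2 and Il15, with 1 to 16 counts in untreated wells. The rise of these genes was therefore not independent of the filter. Of the 10 genes that also passed it in the wells without IFN-γ, 9 were higher at each time, a recount added after the values were seen. The guanylate-binding protein gene Gbp2 had the largest log2FC, 5.86 at 4 hrs (SE 0.08, edgeR adjusted p = 6.89e-53) and 6.46 at 12 hrs (SE 0.07, adjusted p = 2.17e-91), followed at 12 hrs by the immunoproteasome gene Psmb9 (5.18). With Activin-A added to IFN-γ none was called by edgeR at 4 hrs, near the background of 0.810%, and 4 were lower at 12 hrs, where 1.03% of all genes were called: Ifi44 at -0.76 (SE 0.11, edgeR adjusted p = 1.62e-07), the chemokine gene Cxcl10 at -0.65 (SE 0.10, adjusted p = 5.22e-06), Ifit3 at -0.58 (SE 0.09, adjusted p = 1.84e-06) and Isg15 at -0.45 (SE 0.09, adjusted p = 3.21e-04). The antigen presentation genes Tap1, Psmb8, Psmb9, Nlrc5 and B2m had log2FC of -0.22 to -0.07 and were not called. Nor were Oas2 at -0.87 (SE 0.31, edgeR adjusted p = 0.209), Il15 at -0.45 (SE 0.25) and Ifit1 at -0.29 (SE 0.11). The same held for Ccl5 at -0.22, Gbp2 at -0.09 and Cd274 at -0.05. A difference between called and uncalled targets was not tested. RefSeq windows were matched for 12 of the 18 genes of the target list, and 6 of these, B2m, Gbp2, Isg15, Ifit1, Ifit3 and Cxcl10, held the ISRE core, 50%, beside 3.99% of all genes with a window. The core was also found in 3 of 13 sensors and adaptors (23.1%), 2 of 6 cofactors (33.3%) and 1 of 9 upstream genes (11.1%) with a window. A GAS match was found in 1 of the 12 targets, Psmb8, or 8.33%, near the 9.55% of all genes with a window. In the other lists it was found in 2 of 9 upstream genes (22.2%), 2 of 6 cofactors (33.3%) and 1 of 13 sensors and adaptors (7.69%).

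**Figure D5:**
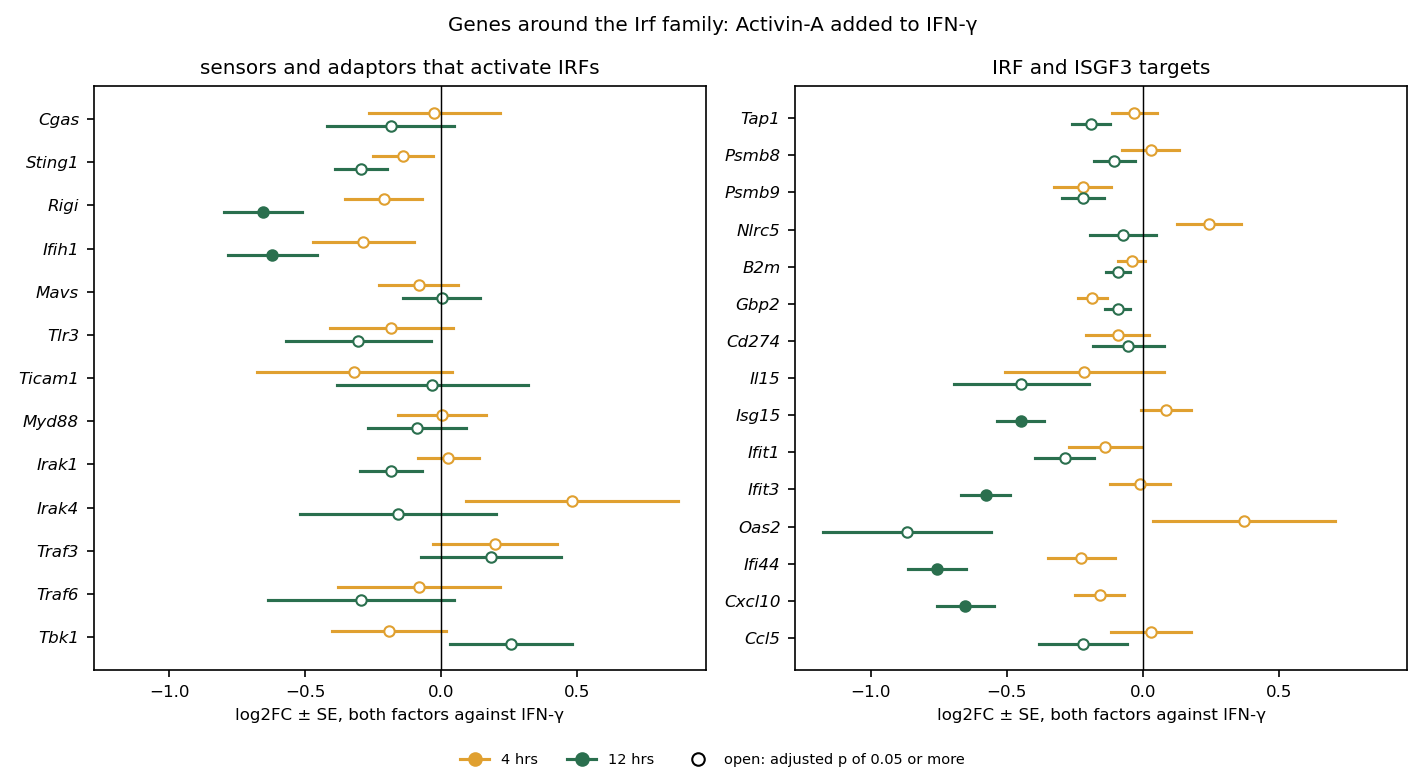
log2FC ± SE of the sensor and adaptor genes (left) and of the IRF and ISGF3 target genes (right) in cells with both factors against cells with IFN-γ, at 4 hrs (orange) and 12 hrs (green). Filled points had an adjusted p under 0.05: Rigi, Ifih1, Isg15, Ifit3, Ifi44 and Cxcl10 at 12 hrs, all below 0, and none at 4 hrs.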

How the data were processed

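BRB-seq of YUMM3.3 cells was used in 32 samples, grouped by treatment and time as labelled. The table deposited by the authors holds counts of reads per gene that were not normalized, and the submitters' processing notes name STAR 2.7.10b, featureCounts, DESeq2 1.36.0 and the build GRCm39. The strand setting and the handling of unique molecular identifiers are not given in the sources used here, so that reads of overlapping genes and duplicates were left as counted. Besides Rnf31 and Phrf1, annotated genes overlap Irf8 on the same strand (Gm20388) and Irf3 (Bcl2l12), Irf5 (Tnpo3), Irf1 and Irf2 on the opposite strand. Their part in the members' counts was not tested. Symbols came from GENCODE M21 on GRCm38 for 12437 of 12451 identifiers, and no gene coordinates are given because the builds differ. Promoters are RefSeq's on GRCm38.p6.

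Genes were filtered with filterByExpr, normalized by TMM and tested with the quasi-likelihood test of edgeR 4.0.16 (R 4.3.3) over the 16 samples of a time or over all 32 between times, with Benjamini-Hochberg adjustment over all genes and a threshold of 0.05. SE were derived from the coefficient and its F statistic, and intervals are 95%. CPM used TMM over all 32 samples. The fits were tested on simulated data. Alternatives were the Wald test of DESeq2 1.42.0, RLE normalization, no filter, a mean of at least 10 counts, the replicate number as a block, fits with all 32 samples or with only the groups compared, a threshold of 0.01, CPM without TMM, Spearman's rho for similar patterns and each well left out.

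The members and lists were chosen with earlier results of these data known. All 7 members were named in every comparison, and of each list the called genes with the largest changes. Stat3, Sting1, Ifngr2, Ccl5, the antigen presentation genes and the other uncalled targets were added after their values were seen. Some genes that these rules name are not reported here. Plots were drawn with Python 3.11.15.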

Additional observations from a re-analysis of the deposited data

Results flagged for a closer look

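In 3 of 56 sets of 4 wells, a well stood apart from the other 3 by Dixon's criterion for the gap over the range, where chance gives about 1 in 20. For Irf5, untreated replicate 4 at 12 hrs had 8.18 CPM beside 10.8 to 11.01 CPM, and IFN-γ replicate 3 at 12 hrs had 15.1 CPM beside 7.28 to 8.36 CPM. Irf5 rested on 4 to 15 counts per well. For Irf8, untreated replicate 3 at 12 hrs had 73.8 CPM beside 58.5 to 60.1 CPM.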

How the results depend on the processing

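The counts of members called were the same under the alternatives in all comparisons but the following. Irf8 with both factors against Activin-A at 12 hrs and Irf2 at 4 hrs were lost at a threshold of 0.01, and DESeq2 lost Irf8, so that 4 in place of 5 and 3 in place of 4 members were called, and with each well left out 4 to 5 and 3 to 4. In cells with IFN-γ at 12 hrs against 4 hrs, 1 member in place of 2 was called with a threshold of 0.01 and by DESeq2, 3 with only the groups compared, and 1 to 2 with each well left out. For the effect of Activin-A under IFN-γ at 12 hrs against 4 hrs, 0 to 1 members were called with each well left out. The replicate number as a block, tried although same-numbered wells of different groups did not deviate together (mean r -9.45e-04 over 112 pairs), changed no count of members, with 4 and 4 called for IFN-γ at 4 hrs and 12 hrs and 1 for both against IFN-γ at 12 hrs.

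Signs turned for uncalled values near 0 when a well was left out. At 12 hrs, the log2FC of IFN-γ against untreated cells ranged from -0.22 to 0.013 for Irf3 and from -0.16 to 0.015 for Irf5, that of both against Activin-A from -0.21 to 0.020 for Irf3, and that of both against IFN-γ from -0.0044 to 0.051 for Irf1, -0.11 to 0.14 for Irf3 and -0.15 to 0.12 for Irf5. Without TMM, Irf2 with IFN-γ at 4 hrs was 64.9 in place of 66.3 CPM. Over all genes DESeq2 called 59 in place of 92 for both against IFN-γ at 12 hrs and 569 in place of 863 for both against Activin-A at 12 hrs. With 4 to 15 counts per well, Irf5 was too shallow for a comparison of its groups, and it was not tested where a mean of at least 10 counts was required and not reached.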
